A study of Homo sapiens with 29 samples.

Results

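NU7441 inhibits the catalytic subunit of DNA-dependent protein kinase (DNA-PK), and its effect on the RNA of C4-2 prostate cancer cells was measured in 3 NU7441 libraries and 3 Ctrl libraries, taken by their labels as 6 of the 29 libraries of the series. C4-2 is an established line derived from LNCaP that grows without added androgen and makes prostate-specific antigen. The cells of both groups were kept in hormone-proficient medium, and per the labels NU7441 was given at 1 µM for 24 h. Whether Ctrl cells received a vehicle, and whether replicates came from separate cultures, is not given in the labels, so p-values measure the spread between these libraries, which may be technical. Both groups are 1 cell line. Other C4-2 libraries were used to set this response in context, 3 in each group and each compound at 1 µM for 24 h: NU7441 together with the antiandrogen enzalutamide (NU7441+Enza), Enza alone, the TOR kinase inhibitor CC-223, and CC-115, which is known to inhibit both DNA-PK and TOR kinase.

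DNA-PK consists of the kinase DNA-PKcs, encoded by PRKDC, and the Ku70 and Ku80 proteins that load it onto broken DNA ends. It starts the repair of double-strand breaks by non-homologous end joining. In prostate cancer cells it is also known as a partner of transcription factors. NU7441 blocks the activity of the kinase and not the synthesis of its RNA, so the PRKDC transcript is no check of the treatment.

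The NU7441 libraries held 32.74 to 39.18 M counts and the Ctrl libraries 34.15 to 36.57 M. The spread within the groups was uneven. Over genes of an average log2 CPM (counts scaled to library size) of at least 1, the log2 differences from the mean of Ctrl had an SD of 0.358 in NU7441 replicate 2, against 0.196 and 0.201 in replicates 1 and 3. Markers of prostate luminal cells were high, with 10 genes that summed to between 6410 and 7040 CPM with NU7441 and between 5220 and 5440 CPM in Ctrl. Markers of other cell types were low, though not all near 0: VWF, an endothelial marker, had 3.13 to 4.25 CPM in the 6 libraries. The basal list (4 genes) summed to between 0.113 and 0.458 CPM with NU7441 and 0.205 to 0.301 CPM in Ctrl, the neuroendocrine list (6 genes) to 2.6 to 3.44 and 2.87 to 3.09 CPM, the stromal list (6 genes) to 3.49 to 4.06 and 3.26 to 4.62 CPM, the endothelial list (4 genes) to 3.15 to 3.65 and 3.59 to 4.25 CPM, and the immune list (5 genes) to 1.12 to 1.89 and 1.02 to 2.0 CPM. TP63, DCN and PECAM1, which define basal, stromal and endothelial cells, had 0 counts in all 6 libraries. Of these lists, 4 of the 10 luminal markers rose, among them KLK3, TMPRSS2 and FOLH1, which are described with the androgen genes, and KRT18 fell. Without Ctrl 1 none of the 10 was called, and KRT18 was called without NU7441 1 but in no other fit without 1 library (adjusted p 0.0771 to 0.187). None of the 8 genes tested from the other lists was called.

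The RNA of the target was not called. PRKDC (ENSG00000253729, chr8:48685669-48872743 in hg19) had 1041, 839 and 1044 CPM with NU7441, against 1045, 1063 and 1092 CPM in Ctrl (log2 fold change −0.13 ± 0.087, adjusted p = 0.333). These and the following values are CPM scaled by TMM (trimmed mean of M-values), in the order of replicates 1, 2 and 3. Fold changes are NU7441 over Ctrl on the log2 scale with the standard error, p-values are Benjamini-Hochberg adjusted values of edgeR's quasi-likelihood test over all genes tested, and called genes are those with an adjusted p below 0.05. The groups did not overlap for PRKDC, and the NU7441 replicates 1 and 3 lay next to the lowest Ctrl library. In bulk RNA, fewer cells of a type and less RNA per cell cannot be told apart, for this and every later gene.

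Of the Ku subunits, XRCC5 (Ku80) fell, with 595, 478 and 568 CPM with NU7441, against 767, 681 and 647 CPM in Ctrl (log2 fold change −0.35 ± 0.089, adjusted p = 0.0187). XRCC6 (Ku70) had 754, 683 and 699 CPM with NU7441, against 890.2, 808 and 778 CPM in Ctrl and was not called (log2 fold change −0.21 ± 0.077, adjusted p = 0.0721). MTOR, a kinase of the same family as DNA-PKcs, had 191, 179 and 196 CPM with NU7441, against 184, 194 and 192 CPM in Ctrl, and its groups overlapped (log2 fold change −0.0078 ± 0.065, adjusted p = 0.953), with a sign that changed in some alternative settings. Beyond XRCC5, LIG4, the ligase that seals the joined ends, and DCLRE1C, the Artemis nuclease that trims them, fell by 0.40 and 0.32 on the log2 scale (adjusted p = 0.00962 and 0.0227). Of the 12 end-joining genes tested, none rose and these 3 fell, against 6.25% of all genes tested that rose and 7.58% that fell, and their median log2 fold change was −0.174. DCLRE1C was no longer called without NU7441 1 (adjusted p = 0.0625), and XRCC5, LIG4 and DCLRE1C without Ctrl 1 (adjusted p 0.0723 to 0.123). XRCC5, LIG4 and DCLRE1C were no longer called without Ctrl 2 (adjusted p 0.054 to 0.0912), and DCLRE1C without Ctrl 3 (adjusted p = 0.0538).

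Across the transcriptome the response was broad and shallow. Of 19569 genes tested, 2706 (13.8%) were called, of which 1223 (6.25%) rose and 1483 (7.58%) fell. The shares of 6.25% and 7.58% are the background for each list count of this comparison with all its libraries. The median log2 fold change of the called genes was 0.428 for rises and −0.311 for falls, and 85 rises and 49 falls exceeded a fold change of 2. All genes tested had a median of −0.00395. The groups did not overlap for 7166 genes (36.6% of those tested). Of the called genes, 2376 (87.8%) had NU7441 replicate 2 as the library farthest from Ctrl in the direction of the change.

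The number of calls rested on single libraries. Without Ctrl replicate 1 it was 422 (2.11% of the genes tested there, of which 1.5% rose) and without Ctrl replicate 2 it was 736, against 1998 without Ctrl replicate 3. Leaving out an NU7441 library gave 2481, 2009 and 2318 calls for replicates 1, 2 and 3. A fit over all 24 C4-2 libraries called 776 genes (3.39%, with 2.28% higher and 1.11% lower), of which 675 were among the 2706. The share of rises among the calls also moved, at 45.2% here, 67.3% in that fit, 57.5% with a stricter filter on low counts and 56.1% with small and mitochondrial RNA removed. In each of the 6 fits that leave out 1 library, 356 genes (245 rises and 111 falls) were called. No called gene changed its sign in these fits or in the other alternative settings in which it was tested. Signs were not counted for the fit with no filter.

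**Figure D1:**
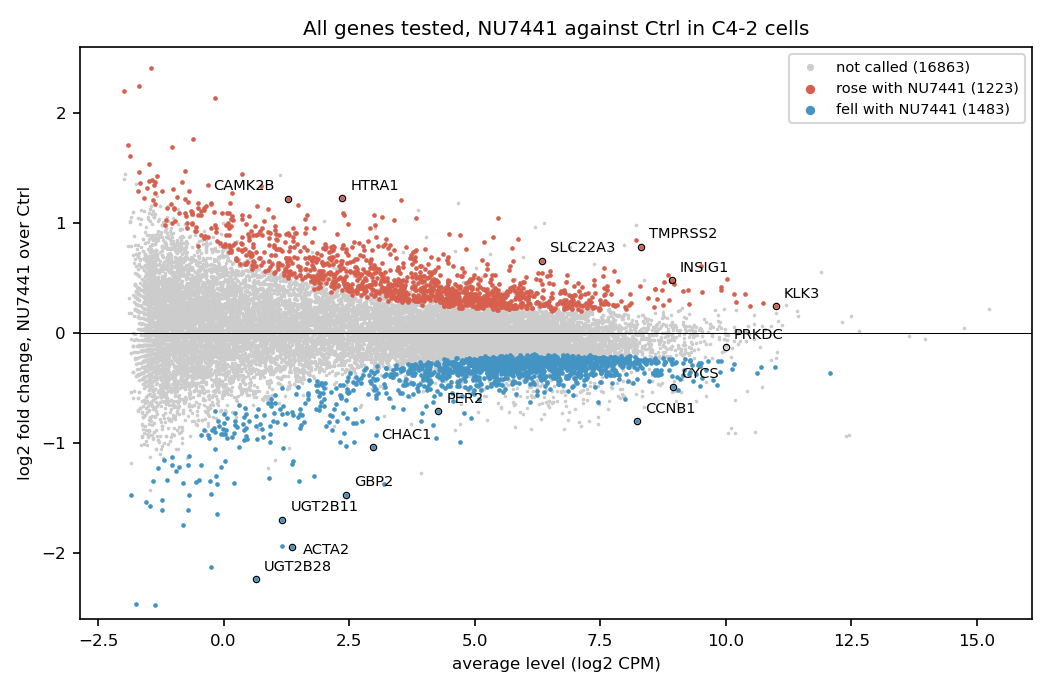
Log2 fold change of NU7441 over Ctrl (vertical axis) against the average level in log2 CPM (horizontal axis), 1 point for each of the 19569 genes tested. Coloured points are the 1223 genes that rose and the 1483 that fell, ringed points carry gene names, and PRKDC lies near 0 at the right.

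The largest rises were in genes of secreted and membrane proteins as well as regulators. HTRA1, a secreted serine protease (ENSG00000166033, chr10:124221041-124274424 in hg19), had 6.46, 8.62 and 6.27 CPM with NU7441, against 3.38, 2.79 and 2.94 CPM in Ctrl (log2 fold change 1.23 ± 0.14, adjusted p = 0.000426). CAMK2B, a subunit of calcium/calmodulin-dependent kinase II, had 3.69, 3.58 and 2.58 CPM with NU7441, against 1.53, 0.98 and 1.69 CPM in Ctrl (log2 fold change 1.22 ± 0.20, adjusted p = 0.00336). For both genes every NU7441 library lay above every Ctrl library, and replicate 2 did not stand apart for CAMK2B. LTBP2, an extracellular matrix protein that binds microfibrils, had 5.93, 9.29 and 6.62 CPM with NU7441, against 3.43, 3.46 and 4.05 CPM in Ctrl (log2 fold change 0.99 ± 0.16, adjusted p = 0.00373). SLC13A3, a transporter of dicarboxylates, had 8.14, 11.98 and 9.47 CPM with NU7441, against 5.22, 4.78 and 5.19 CPM in Ctrl (log2 fold change 0.96 ± 0.13, adjusted p = 0.0015). GPR143, the receptor of melanosomes that is altered in ocular albinism, rose by 0.97 ± 0.19, adjusted p = 0.00651. These 5 genes were called in each fit without 1 library.

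The next rises depended on the libraries used. PBXIP1, which binds PBX homeodomain factors, had 14.2, 21.6 and 12.1 CPM with NU7441, against 6.5, 6.68 and 7.48 CPM in Ctrl (log2 fold change 1.21 ± 0.23, adjusted p = 0.0222), with replicate 2 well above the other NU7441 libraries. ARG2, the mitochondrial arginase, had 52.9, 78.3 and 45.4 CPM with NU7441, against 30.2, 27.5 and 28.1 CPM in Ctrl (log2 fold change 1.04 ± 0.22, adjusted p = 0.0441) and showed the same order. MAJIN, known for fixing telomeres to the nuclear membrane in meiosis, ZBTB20, a zinc finger repressor, EPHA10, an ephrin receptor, and YPEL2, a Yippee family protein, rose by 1.09, 1.07, 1.06 and 1.04 on the log2 scale (adjusted p = 0.0465, 0.00649, 0.0121 and 0.0304). DENND6B, a DENN domain protein, ATP8A1, a phospholipid flippase, and SSPOP, which the annotation types as protein-coding although its symbol marks a pseudogene, rose by 1.03, 1.03 and 0.98 (adjusted p = 0.00705, 0.0421 and 0.0346). ARG2 was no longer called without NU7441 1 (adjusted p = 0.0557), and ATP8A1 without NU7441 3 (adjusted p = 0.0725). PBXIP1, MAJIN, ZBTB20, EPHA10, ARG2, YPEL2, DENND6B, ATP8A1 and SSPOP were no longer called without Ctrl 1 (adjusted p 0.0567 to 0.16), and PBXIP1, MAJIN, ARG2, YPEL2, ATP8A1 and SSPOP without Ctrl 2 (adjusted p 0.0934 to 0.155). PBXIP1, MAJIN, ARG2, YPEL2 and ATP8A1 were no longer called without Ctrl 3 (adjusted p 0.0678 to 0.14).

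The largest falls were deeper than the largest rises and included smooth muscle actin and steroid-conjugating enzymes. ACTA2, smooth muscle actin (ENSG00000107796, chr10:90694831-90751147 in hg19), had 1.07, 0.887 and 1.17 CPM with NU7441, against 4.03, 3.92 and 4.13 CPM in Ctrl (log2 fold change −1.95 ± 0.16, adjusted p = 2.03e-05). All 3 NU7441 libraries lay at about the same low level, below every Ctrl library. The annotated span of ACTA2 overlaps at its end with that of FAS, and since the strand setting of the counting is not given in the sources used here, reads in the overlap cannot be assigned. GBP2, a guanylate-binding GTPase induced by interferon, had 3.33, 2.08 and 3.11 CPM with NU7441, against 8.99, 7.26 and 7.37 CPM in Ctrl (log2 fold change −1.47 ± 0.16, adjusted p = 0.000209). PGLYRP2, an amidase that cleaves peptidoglycan, had 1.7, 1.16 and 1.88 CPM with NU7441, against 4, 3.74 and 2.91 CPM in Ctrl (log2 fold change −1.16 ± 0.19, adjusted p = 0.00318). ALDH1A1, which oxidises retinaldehyde to retinoic acid, had 13.97, 10.5 and 13.9 CPM with NU7441, against 27.6, 24.4 and 22.3 CPM in Ctrl (log2 fold change −0.96 ± 0.11, adjusted p = 0.000899), and its groups were far apart. BRDT, a bromodomain protein of the testis, fell by 0.88 on the log2 scale (adjusted p = 0.00318). FAM72D, 1 of several near-identical copies among which reads may be split, fell by 0.99 (adjusted p = 0.00367). These 6 genes were called in each fit without 1 library.

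Falls that depended on a library included a desmosomal cadherin and a growth factor. DSC3, desmocollin 3, had 2.52, 1.05 and 2.37 CPM with NU7441, against 5.39, 5.21 and 4.11 CPM in Ctrl (log2 fold change −1.30 ± 0.26, adjusted p = 0.0175). ELOVL2, an elongase of polyunsaturated fatty acids, had 19.4, 12.1 and 20.7 CPM with NU7441, against 36.8, 33.04 and 34.1 CPM in Ctrl (log2 fold change −0.99 ± 0.20, adjusted p = 0.0278). IGF1, the growth factor that activates the insulin-like growth factor receptor, had 3.89, 2.22 and 4.75 CPM with NU7441, against 7.15, 6.43 and 6.72 CPM in Ctrl (log2 fold change −0.90 ± 0.22, adjusted p = 0.0265). Replicate 2 was the lowest library for each of them. NAV2, a cytoskeletal regulator, fell by 1.04 (adjusted p = 0.0241). IGF1 was no longer called without NU7441 1 (adjusted p = 0.054), and DSC3, ELOVL2, IGF1 and NAV2 without Ctrl 1 (adjusted p 0.0905 to 0.127). DSC3, ELOVL2, IGF1 and NAV2 were no longer called without Ctrl 2 (adjusted p 0.0794 to 0.0887), and ELOVL2, IGF1 and NAV2 without Ctrl 3 (adjusted p 0.0845 to 0.0872).

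**Figure D2:**
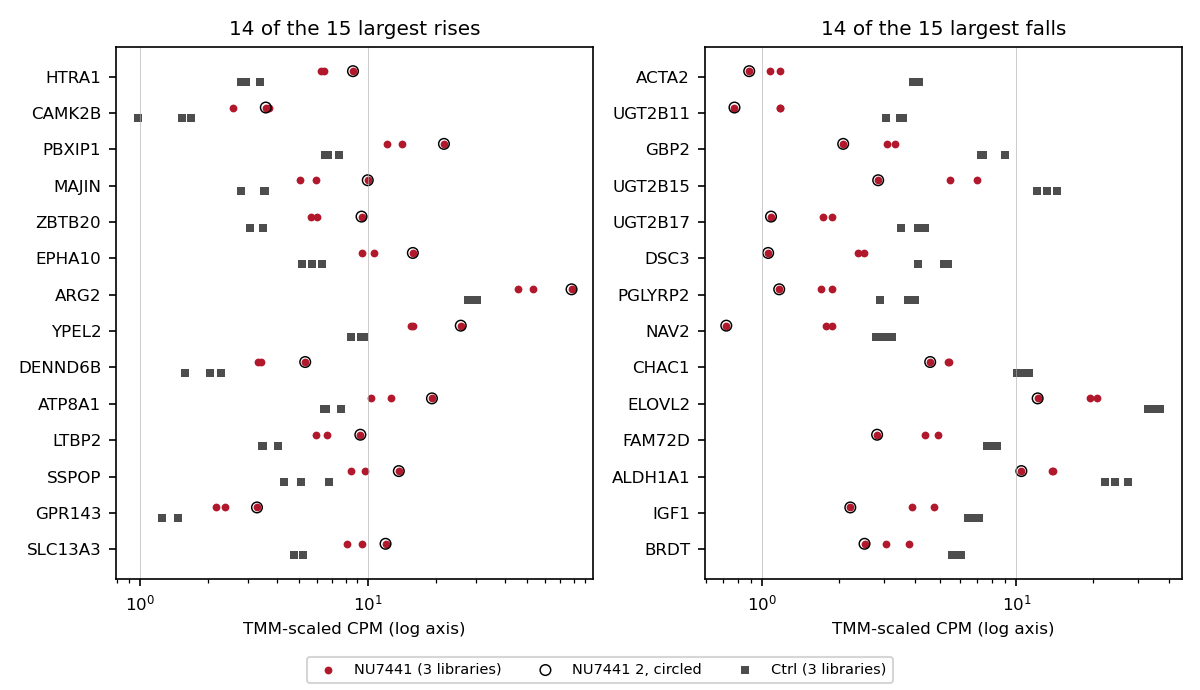
TMM-scaled CPM on a log axis for 14 of the 15 largest rises (left) and 14 of the 15 largest falls (right), 1 row per gene, with the 3 NU7441 libraries as circles above the 3 Ctrl libraries as squares. NU7441 replicate 2 is ringed and lies farthest from Ctrl in most rows, but not for CAMK2B, and for ACTA2 by a small margin.

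Genes of mitosis were lower with NU7441, most of all in 1 library. Their products act at set steps: cyclin B and its kinase start mitosis, condensins pack the chromosomes, kinetochores and spindle motors move them, and the anaphase-promoting complex ends the process by degrading securin and cyclin B. All 108 genes tested from 5 lists of mitotic genes had a negative fold change, with a median of −0.524, and for 103 of them the groups did not overlap (36.6% of all genes tested). Only 14 of the 108 (13.0%, against 7.58% of all genes tested) passed the threshold and none rose. By library, the median log2 difference of these genes from the mean of Ctrl was −0.347, −1.05 and −0.343 for NU7441 1, 2 and 3, and 0.0792, −0.0125 and −0.0625 for Ctrl 1, 2 and 3. Replicate 2 was the lowest NU7441 library for all 108 genes, and Ctrl 1 was the highest Ctrl library for 83.

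The number of mitotic genes called followed this spread. Without NU7441 replicate 2, 94 of the 108 (87.0%, against 5.96% of all genes tested) fell at a median of −0.334, which is closer to 0. Without NU7441 replicate 1 or 3, 27 and 16 fell. Without Ctrl replicate 1, 2 or 3, 0, 4 and 7 fell, with medians of −0.474, −0.531 and −0.556. In the fit over all 24 C4-2 libraries 38 fell (35.2%). In the fit over those but Enza 1 and CC-115+Enza 1, 20 of 22 kinase, 15 of 17 anaphase, 25 of 27 spindle, 24 of 25 kinetochore and 16 of 17 condensin genes fell. Of all 23108 genes tested in that fit, 2604 fell.

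**Figure D3:**
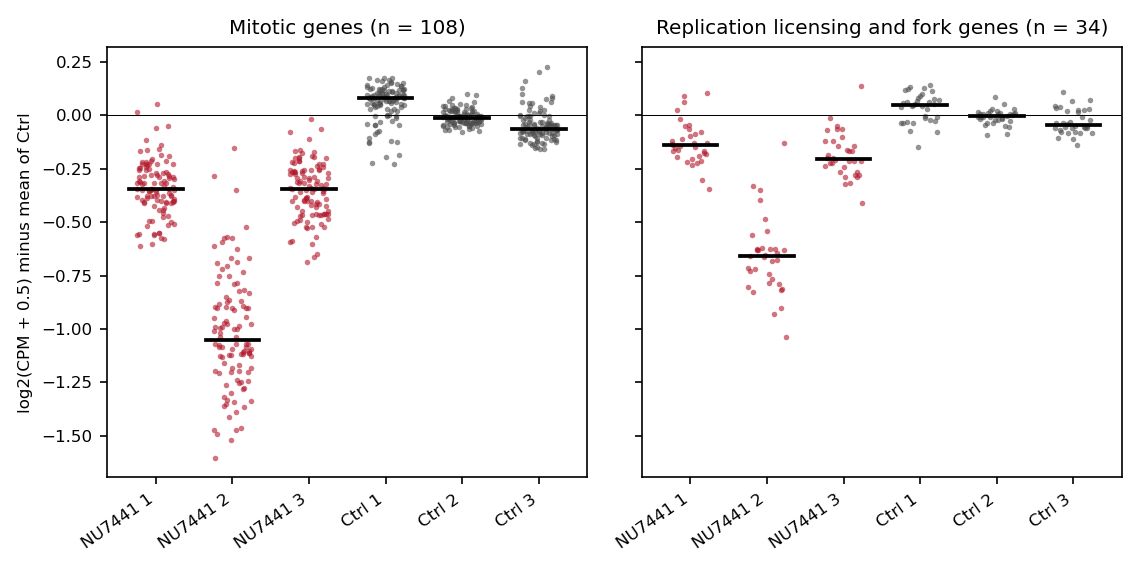
Log2(CPM + 0.5) minus the mean of the 3 Ctrl libraries, in each of the 3 NU7441 and the 3 Ctrl libraries, for 108 mitotic genes (left) and 34 replication genes (right). Points are genes and bars are medians: the NU7441 2 bar lies at −1.05 for mitotic genes and −0.661 for replication genes, below the bars of NU7441 1 and 3 and all Ctrl bars.

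By step, 2 of 22 genes for mitotic kinases and their regulators fell (median −0.517), where 7.58% of all genes tested fell. This share also stands beside the counts of the other steps. CCNB1, cyclin B1, had 254, 159.7 and 238 CPM with NU7441, against 420.0, 373 and 345 CPM in Ctrl (log2 fold change −0.80 ± 0.19, adjusted p = 0.0498), and CKS2, a subunit that binds cyclin-dependent kinases, had 153, 116 and 149 CPM with NU7441, against 218, 194 and 175 CPM in Ctrl (log2 fold change −0.49 ± 0.11, adjusted p = 0.0216). For CCNB1, replicate 2 was far below replicates 1 and 3, which were themselves below every Ctrl library. Of 17 genes of the anaphase-promoting complex and its checkpoint, 4 fell (median −0.56): PTTG1, which is securin, UBE2S, which extends the ubiquitin chains, BUB3, a checkpoint protein, and ANAPC1, a scaffold subunit. PTTG1 had 111, 82.5 and 107 CPM with NU7441, against 163, 144 and 135 CPM in Ctrl (log2 fold change −0.56 ± 0.11, adjusted p = 0.0134). Of 27 spindle and kinesin genes, 3 fell (median −0.578): ECT2, the exchange factor that starts cytokinesis, and the microtubule-binding CKAP2 and CKAP5. ECT2 had 224, 155 and 230.3 CPM with NU7441, against 332, 299 and 291 CPM in Ctrl (log2 fold change −0.60 ± 0.15, adjusted p = 0.0461).

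Of 25 kinetochore and centromere genes, 4 fell (median −0.484): SPC25 of the NDC80 complex, CENPW and CENPH of the inner kinetochore, and MIS18A, which helps to place the centromeric histone. SPC25 had 13.97, 8.1 and 12.8 CPM with NU7441, against 18.8, 18.5 and 20.2 CPM in Ctrl (log2 fold change −0.72 ± 0.18, adjusted p = 0.0392), and CENPW had 19.5, 15.9 and 19.5 CPM with NU7441, against 26.95, 26.5 and 23.4 CPM in Ctrl (log2 fold change −0.48 ± 0.092, adjusted p = 0.00565). Replicates 1 and 3 of NU7441 were close to each other for both genes. Of 17 condensin and mitotic chromatin genes, only H2AZ1 fell (median −0.509), beside 7.58% of all genes tested. H2AZ1 encodes a histone variant with close copies among which reads may be split, and it had 649, 507 and 627 CPM with NU7441, against 897, 837 and 753 CPM in Ctrl (log2 fold change −0.48 ± 0.095, adjusted p = 0.00705). ANAPC1 was no longer called without NU7441 2 (adjusted p = 0.0781), and CCNB1 and ANAPC1 without NU7441 3 (adjusted p 0.0588 to 0.0755). CCNB1, CKS2, PTTG1, UBE2S, BUB3, ANAPC1, ECT2, CKAP2 and CKAP5 were no longer called without Ctrl 1 (adjusted p 0.0774 to 0.189), and CCNB1, CKS2, UBE2S, BUB3, ANAPC1, ECT2, CKAP2 and CKAP5 without Ctrl 2 (adjusted p 0.0591 to 0.139). CCNB1, UBE2S, ANAPC1, ECT2 and CKAP2 were no longer called without Ctrl 3 (adjusted p 0.0581 to 0.117). SPC25 was no longer called without NU7441 3 (adjusted p = 0.0652), and SPC25, CENPW, MIS18A, CENPH and H2AZ1 without Ctrl 1 (adjusted p 0.0548 to 0.17). SPC25 and MIS18A were no longer called without Ctrl 2 (adjusted p 0.0874 to 0.103) or Ctrl 3 (adjusted p 0.0762 to 0.12).

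Sequence elements were counted in the promoters of the mitotic genes. The cell cycle genes homology region is the binding element of the MuvB core of the DREAM and MYB complexes, and the CCAAT box is bound by NF-Y. In RefSeq windows of 250 bases before to 50 after the gene start (build GRCh38.p14), searched on both strands, TTTGAA was present in 58 of 92 matched mitotic promoters (63.0%), in none of 30 replication promoters and in 9.94% of the 11959 promoters of tested genes. CCAAT was present in 65.2% of the mitotic, 56.7% of the replication and 36.5% of all promoters, and both elements in 44.6% of the mitotic and 4.18% of all promoters. CCAAT was also present in 76.2% of the 21 matched sterol promoters and 60.0% of the 25 matched ATF4 promoters. Of called genes, TTTGAA was present in 7.23% of the promoters of those that rose and 12.8% of those that fell. A match is a string of letters and not a shown binding site. The promoters of 3 genes that fell are printed from 220 bases before the start to 30 after it, 5′ to 3′ on the strand of the gene. TTTGAA and CCAAT or their reverse complements are in capitals. PTTG1, which also fell and is not printed, held CCAAT but no TTTGAA in its promoter. SPC25 (chr2:168890401-168890650, minus strand) and ECT2 (chr3:172750506-172750755, plus strand) hold both elements, and CCNB1 (chr5:69166930-69167179, plus strand), which carries a CCAAT pair, has no TTTGAA in this window. The order differs in the printed bases, with TTTGAA after the CCAAT boxes in SPC25 and before them in ECT2.
SPC25: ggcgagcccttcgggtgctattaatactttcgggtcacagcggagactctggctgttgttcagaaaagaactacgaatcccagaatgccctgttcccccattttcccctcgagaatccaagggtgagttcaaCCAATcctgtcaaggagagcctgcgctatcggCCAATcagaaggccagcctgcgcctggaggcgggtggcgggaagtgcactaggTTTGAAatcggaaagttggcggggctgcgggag
ECT2: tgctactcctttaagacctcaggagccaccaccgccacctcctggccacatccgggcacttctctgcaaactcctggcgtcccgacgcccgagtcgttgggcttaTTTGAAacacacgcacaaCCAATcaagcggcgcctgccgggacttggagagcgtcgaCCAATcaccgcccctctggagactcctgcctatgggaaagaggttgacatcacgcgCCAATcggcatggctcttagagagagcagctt
CCNB1: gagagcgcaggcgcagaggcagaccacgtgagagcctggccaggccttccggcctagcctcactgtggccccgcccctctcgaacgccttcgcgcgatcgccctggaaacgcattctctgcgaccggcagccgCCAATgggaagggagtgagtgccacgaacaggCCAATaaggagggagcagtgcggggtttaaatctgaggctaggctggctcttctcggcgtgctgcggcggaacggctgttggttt

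Genes of S phase held few calls, and their medians lay below 0. Of 34 genes for replication licensing and the fork, 1 fell, beside 7.58% of all genes tested, and the median was −0.316. It was RFC5, a subunit of the clamp loader, with 92.1, 67.7 and 89.2 CPM with NU7441, against 112, 105 and 105 CPM in Ctrl (log2 fold change −0.37 ± 0.10, adjusted p = 0.031). By library the medians were −0.141, −0.661 and −0.203 for NU7441 1, 2 and 3, and lay between −0.0455 and 0.0498 in Ctrl. Without NU7441 1, 2 or 3, 13, 10 and 3 of the 34 fell, and none fell without Ctrl 1, 2 or 3 or in the fit over all 24 libraries. Of 10 genes of deoxynucleotide supply, 2 fell (median −0.312): RRM1, the large subunit of ribonucleotide reductase, with 271, 188 and 257 CPM with NU7441, against 352, 321 and 308 CPM in Ctrl (log2 fold change −0.46 ± 0.13, adjusted p = 0.048), and DCTPP1, which removes modified nucleotides (−0.25, adjusted p = 0.038). None of 12 replication-dependent histone genes was called, at a median of −0.442, but 6 fell without NU7441 2, 1 without NU7441 1 and 9 in the fit over all C4-2 libraries but Enza 1 and CC-115+Enza 1. H1-5, a linker histone, had the largest difference among them (log2 fold change −0.62 ± 0.31, adjusted p = 0.268).

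Of 28 genes for E2F, DREAM and FOXM1 regulators, 1 rose and 5 fell (median −0.241), beside 6.25% and 7.58% of all genes tested. RBL2, the pocket protein p130 of the DREAM complex, had 136, 161 and 132 CPM with NU7441, against 114, 112 and 113 CPM in Ctrl (log2 fold change 0.34 ± 0.075, adjusted p = 0.0101) and was called in each fit without 1 library. CDK6, a G1 kinase, E2F6, a repressor, and TFDP1, the partner of E2F proteins, fell by 0.37, 0.28 and 0.28 (adjusted p = 0.0383, 0.033 and 0.0305). CDK4, the other G1 kinase, and CDKN1B, the inhibitor p27, fell by 0.24 and 0.21 (adjusted p = 0.0296 and 0.0456). CDK4 was no longer called without NU7441 3, Ctrl 1 or Ctrl 2 (adjusted p 0.0905 to 0.183), and CDKN1B was called in none of the fits without 1 library (adjusted p 0.0637 to 0.222). None of the 28 fell without Ctrl 1 or Ctrl 2, and 2 without Ctrl 3. Of 19 homologous recombination and Fanconi genes 1 fell (median −0.282), PALB2, the link between BRCA1 and BRCA2, by 0.28 (adjusted p = 0.0205). Of 20 checkpoint signalling genes 2 fell (median −0.156): TOPBP1, an activator of ATR, by 0.31, and RNF8, a ubiquitin ligase of the break response, by 0.23 (adjusted p = 0.0465 and 0.0421). CDK6 and RNF8 were no longer called without NU7441 1 (adjusted p 0.0508 to 0.12), and DCTPP1, CDK6, E2F6, TFDP1, TOPBP1 and RNF8 without NU7441 2 (adjusted p 0.0567 to 0.0959). RRM1, DCTPP1 and RNF8 were no longer called without NU7441 3 (adjusted p 0.0566 to 0.071), and RFC5, RRM1, DCTPP1, CDK6, E2F6, TFDP1, PALB2, TOPBP1 and RNF8 without Ctrl 1 (adjusted p 0.102 to 0.229). RFC5, RRM1, DCTPP1, CDK6, E2F6, TFDP1, PALB2, TOPBP1 and RNF8 were no longer called without Ctrl 2 (adjusted p 0.0764 to 0.18), and RFC5, RRM1, DCTPP1, E2F6, TFDP1, TOPBP1 and RNF8 without Ctrl 3 (adjusted p 0.064 to 0.0964).

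Of 25 targets of p53 tested, 3 rose and 3 fell, with a median of 0.0346, beside 6.25% of all genes tested that rose and 7.58% that fell. Without Ctrl 1, none rose and 1 fell. BBC3, the pro-apoptotic PUMA, had 4.3, 5.82 and 3.93 CPM with NU7441, against 2.58, 3.46 and 2.99 CPM in Ctrl (log2 fold change 0.64 ± 0.16, adjusted p = 0.0187). AEN, an apoptosis-enhancing nuclease, had 75.4, 60.4 and 69.6 CPM with NU7441, against 94.02, 94.1 and 88.3 CPM in Ctrl (log2 fold change −0.43 ± 0.077, adjusted p = 0.00468). SESN1, sestrin 1, rose by 0.43 and FAS, the death receptor whose span overlaps that of ACTA2, fell by 0.41 (adjusted p = 0.0469 and 0.0354). BTG2, an antiproliferative factor, rose by 0.35 and TIGAR, a regulator of glycolysis, fell by 0.32 (adjusted p = 0.0156 and 0.0244). AEN was called in each fit without 1 library. FAS was no longer called without NU7441 1 (adjusted p = 0.0638) or NU7441 2 (adjusted p = 0.0937). BBC3, SESN1, FAS, BTG2 and TIGAR were no longer called without Ctrl 1 (adjusted p 0.0596 to 0.144), and SESN1, FAS and TIGAR without Ctrl 2 (adjusted p 0.116 to 0.13). SESN1, FAS, BTG2 and TIGAR were no longer called without Ctrl 3 (adjusted p 0.0526 to 0.139).

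Genes of the androgen response split in direction. KLK3, which encodes prostate-specific antigen, rose, with 2200.2, 2333 and 2093 CPM with NU7441, against 1911, 1872 and 1803 CPM in Ctrl (log2 fold change 0.25 ± 0.078, adjusted p = 0.0454). TMPRSS2, a membrane serine protease, had 357, 497 and 351 CPM with NU7441, against 237, 233 and 230.2 CPM in Ctrl (log2 fold change 0.78 ± 0.12, adjusted p = 0.00685), with replicate 2 highest. KLK4, a kallikrein protease, had 46.6, 55.6 and 41.7 CPM with NU7441, against 30.9, 33.6 and 35.5 CPM in Ctrl (log2 fold change 0.53 ± 0.10, adjusted p = 0.00565) and was called in each fit without 1 library. FOLH1, prostate-specific membrane antigen, had 1117, 1463 and 1083 CPM with NU7441, against 912, 843 and 844 CPM in Ctrl (log2 fold change 0.49 ± 0.10, adjusted p = 0.00932).

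Falls in the same list were SLC2A3, a glucose transporter near the limit of detection, with 0.585, 0.527 and 0.909 CPM with NU7441, against 1.59, 0.888 and 1.3 CPM in Ctrl and groups that overlapped (log2 fold change −0.92 ± 0.27, adjusted p = 0.0332), and CHRNA2, a nicotinic receptor subunit, with 11.4, 7.35 and 12.1 CPM with NU7441, against 14.4, 15.9 and 15.5 CPM in Ctrl (log2 fold change −0.57 ± 0.16, adjusted p = 0.0419). Of the 36 androgen-induced genes tested, 8 rose and 7 fell, at a median of 0.063. Other rises were those of ACP3, prostatic acid phosphatase, STEAP2, a metalloreductase, and PMEPA1, an inhibitor of TGF-beta signalling (0.27 to 0.44). The other falls were those of RHOU, MAF, TPD52, ELL2 and SPDEF (−0.37 to −0.26), of which SPDEF and MAF are transcription factors. Without Ctrl 1, 2 rose and none fell. KLK3 and SLC2A3 were no longer called without NU7441 1 (adjusted p 0.0895 to 0.107) or NU7441 2 (adjusted p 0.0814 to 0.121). KLK3, TMPRSS2, FOLH1, SLC2A3 and CHRNA2 were no longer called without Ctrl 1 (adjusted p 0.0555 to 0.18), KLK3 and CHRNA2 without Ctrl 2 (adjusted p 0.127 to 0.155), and KLK3, SLC2A3 and CHRNA2 without Ctrl 3 (adjusted p 0.0749 to 0.123).

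The UGT2B enzymes, which add glucuronic acid to steroids and of which UGT2B15 and UGT2B17 are known to inactivate androgens, held some of the deepest falls. UGT2B28 had 0.661, 0.166 and 0.762 CPM with NU7441, against 2.64, 2.66 and 2.23 CPM in Ctrl (log2 fold change −2.24 ± 0.31, adjusted p = 0.00318). UGT2B11 had 1.17, 0.776 and 1.17 CPM with NU7441, against 3.49, 3.58 and 3.07 CPM in Ctrl (log2 fold change −1.70 ± 0.18, adjusted p = 0.000182). UGT2B17 had 1.88, 1.08 and 1.73 CPM with NU7441, against 4.11, 4.38 and 3.51 CPM in Ctrl (log2 fold change −1.35 ± 0.18, adjusted p = 0.00133), and UGT2B15 had 5.5, 2.86 and 6.98 CPM with NU7441, against 14.5, 13.1 and 12.04 CPM in Ctrl (log2 fold change −1.37 ± 0.30, adjusted p = 0.0432). Replicate 2 was the lowest library for all 4 genes, and every NU7441 library lay below every Ctrl library. Of 13 glucuronosyltransferases and steroid enzymes tested, none rose and 5 fell, at a median of −0.177. The fifth was HSD3B1, which converts adrenal precursors towards androgens (−1.20, adjusted p = 0.0431), and it was called without NU7441 1 but in no other fit without 1 library (adjusted p 0.0686 to 0.183). The UGT2B genes are near-identical neighbours on chromosome 4, and reads may be split among them. UGT2B15 was no longer called without NU7441 1 (adjusted p = 0.083) or Ctrl 1 (adjusted p = 0.142). UGT2B15 was no longer called without Ctrl 2 (adjusted p = 0.164) or Ctrl 3 (adjusted p = 0.106).

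Many genes of sterol synthesis and uptake rose. Some genes of the list, but not all, are targets of SREBP2, which is released from the endoplasmic reticulum when sterol is low. Of 28 tested, 13 rose and 2 fell, at a median of 0.223, beside 6.25% and 7.58% of all genes tested. INSIG1, the anchor that retains SREBP, had 526, 643 and 521 CPM with NU7441, against 421, 407 and 385 CPM in Ctrl (log2 fold change 0.48 ± 0.084, adjusted p = 0.00407). LSS, lanosterol synthase, had 128, 148 and 118 CPM with NU7441, against 89.1, 99.2 and 97.3 CPM in Ctrl (log2 fold change 0.47 ± 0.08, adjusted p = 0.00391), and MVD, which decarboxylates mevalonate pyrophosphate, had 34.2, 38.7 and 30.5 CPM with NU7441, against 23.9, 24.8 and 25.7 CPM in Ctrl (log2 fold change 0.47 ± 0.085, adjusted p = 0.00464). The groups of these 3 genes did not overlap, and they were called in each fit without 1 library. Other rises lay along the pathway, with SREBF2 itself, HMGCS1 at its start, and FDFT1, SQLE, MSMO1, HSD17B7 and DHCR7 further down, by 0.25 to 0.45 on the log2 scale. FDFT1 and HSD17B7 were no longer called without Ctrl 1, Ctrl 2 or Ctrl 3 (adjusted p 0.0701 to 0.0923). SREBF2 and DHCR7 were no longer called without Ctrl 1 or Ctrl 2 (adjusted p 0.0549 to 0.0769), and SREBF2 without NU7441 1 (adjusted p = 0.0533). ABCG1, which exports sterol from cells, moved the other way, with 3.79, 2.91 and 5.07 CPM with NU7441, against 6.16, 7.11 and 6.14 CPM in Ctrl (log2 fold change −0.72 ± 0.16, adjusted p = 0.0129), as did MYLIP, a ubiquitin ligase of sterol uptake (−0.33, adjusted p = 0.0345). MYLIP was no longer called without NU7441 2, Ctrl 1, Ctrl 2 or Ctrl 3 (adjusted p 0.0667 to 0.149). Without 1 library, between 6 and 14 of the 28 genes rose, and none fell without Ctrl 1 or Ctrl 2. The letters TCACNCCAC, a sterol regulatory element, were searched on both strands in the same promoter windows as above. They were present in 1 of 21 matched promoters of the list (4.76%) and in 1.12% of all promoters. INSIG1, MVD and LSS held no match.

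Fatty acid synthesis showed fewer calls, with 3 rises and no fall among 18 genes and a median of 0.117. SCD, the stearoyl-CoA desaturase, had 532, 642 and 555 CPM with NU7441, against 414, 419.8 and 437 CPM in Ctrl (log2 fold change 0.44 ± 0.078, adjusted p = 0.00409) and was called in each fit without 1 library. PNPLA3, a lipid droplet lipase, rose by 0.47 and ACSS2, which makes acetyl-CoA from acetate, by 0.31 (adjusted p = 0.0415 and 0.0229). Of 31 lysosome and autophagy genes 6 rose and none fell (median 0.13), beside 6.25% and 7.58% of all genes tested. NPC2, which moves cholesterol out of lysosomes, had 40.4, 56.98 and 39.7 CPM with NU7441, against 31.5, 27.99 and 29.3 CPM in Ctrl (log2 fold change 0.63 ± 0.14, adjusted p = 0.0248). FLCN, folliculin, SQSTM1, the autophagy receptor p62, and CTSD, cathepsin D, rose by 0.40, 0.39 and 0.38 (adjusted p = 0.0281, 0.0289 and 0.0157). LAMP2, a lysosomal membrane protein, and ULK1, a kinase that starts autophagy, rose by 0.29 and 0.35. None of the 31 was called without Ctrl 1 and 1 without Ctrl 2. PNPLA3 and ACSS2 were no longer called without NU7441 2 (adjusted p 0.0512 to 0.146), and ABCG1, PNPLA3, ACSS2, NPC2, FLCN, SQSTM1 and CTSD without Ctrl 1 (adjusted p 0.0713 to 0.127). ABCG1, PNPLA3, ACSS2, NPC2, FLCN and SQSTM1 were no longer called without Ctrl 2 (adjusted p 0.0526 to 0.101), and PNPLA3, ACSS2, NPC2, FLCN and SQSTM1 without Ctrl 3 (adjusted p 0.073 to 0.112).

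FOXO targets and receptor feedback genes are known to rise when PI3K and AKT signalling is low, and 7 of 19 rose and 1 fell (median 0.219). INSR, the insulin receptor, had 50.3, 51.3 and 53.5 CPM with NU7441, against 34.98, 37.8 and 40.8 CPM in Ctrl (log2 fold change 0.45 ± 0.072, adjusted p = 0.00318) and was called in each fit without 1 library. PIK3IP1, an inhibitor of PI3K, had 4.73, 7.18 and 4.51 CPM with NU7441, against 3.21, 3.28 and 3.1 CPM in Ctrl (log2 fold change 0.78 ± 0.17, adjusted p = 0.0102). IRS2, an insulin receptor substrate, rose by 0.62, and TNFSF10, the death ligand TRAIL, fell by 0.69 (adjusted p = 0.0277 and 0.0364). The other rises were those of the receptors ERBB2 and ERBB3, of FOXO3 and of SESN3 (0.22 to 0.34). Only 1 of the 19 rose without Ctrl 1. The components of the pathway itself showed 1 rise, TSC1, a brake on TOR signalling (0.26, adjusted p = 0.0407), and 1 fall, the S6 kinase RPS6KB2 (−0.23, adjusted p = 0.0443), among 28 genes with a median of 0.0115. TNFSF10 was no longer called without NU7441 1 (adjusted p = 0.0586), and IRS2, TNFSF10, TSC1 and RPS6KB2 without NU7441 2 (adjusted p 0.0682 to 0.128). IRS2 and RPS6KB2 were no longer called without NU7441 3 (adjusted p 0.0571 to 0.0971), and PIK3IP1, IRS2, TNFSF10, TSC1 and RPS6KB2 without Ctrl 1 (adjusted p 0.0655 to 0.17). IRS2, TNFSF10, TSC1 and RPS6KB2 were no longer called without Ctrl 2 (adjusted p 0.0642 to 0.189), and TSC1 and RPS6KB2 without Ctrl 3 (adjusted p 0.0561 to 0.073).

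**Figure D4:**
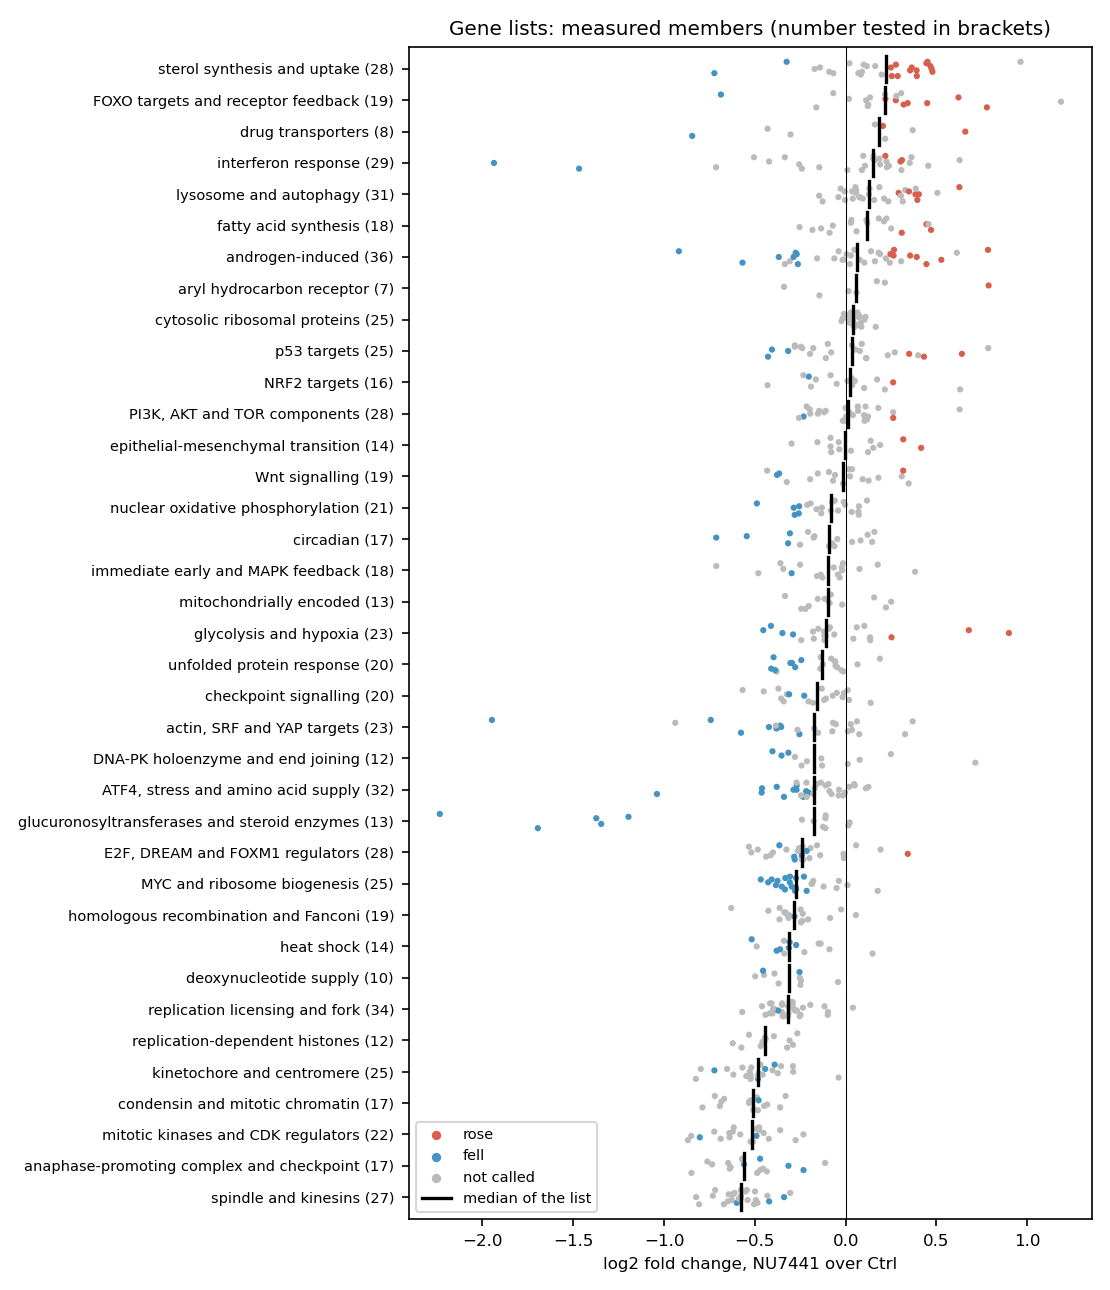
Log2 fold change of NU7441 over Ctrl for the measured members of 37 pathway lists, 1 row per list with the number tested in brackets, ordered by the median (black bar). Coloured points are called genes: the spindle list has the lowest median (−0.578) and the sterol list the highest (0.223), and the 5 mitotic lists lie together at the bottom.

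Some genes of amino acid supply and protein folding fell. ATF4, a transcription factor of the integrated stress response, drives amino acid synthesis and transport, and of 32 genes of that list none rose and 11 fell, at a median of −0.175. CHAC1, which degrades glutathione, had 5.39, 4.58 and 5.42 CPM with NU7441, against 10.1, 11.2 and 10.4 CPM in Ctrl (log2 fold change −1.04 ± 0.11, adjusted p = 0.000182). TRIB3, a pseudokinase, had 62.3, 52.1 and 58.5 CPM with NU7441, against 78.5, 81.8 and 77.7 CPM in Ctrl (log2 fold change −0.46 ± 0.072, adjusted p = 0.00312). ATF5, a related factor, and CEBPG, a partner of ATF4, fell by 0.46 and 0.38 (adjusted p = 0.0102 and 0.0057). Other falls included those of ATF4 itself, the serine pathway genes PSAT1 and PSPH, MTHFD2 of one-carbon metabolism, STC2 and GARS1 (−0.34 to −0.22). None of these was called without Ctrl 1 or without Ctrl 2 (adjusted p 0.0639 to 0.231). STC2 was called in none of the fits without 1 library (adjusted p 0.0639 to 0.189). For CHAC1 the groups were far apart and replicates 1 and 3 were nearly equal. Without 1 library, between 3 and 10 of the 32 fell. The letters TGATGNAA, the amino acid response element to which ATF4 binds with C/EBP partners, were present on either strand in 5 of 25 matched promoters of the list and in 1.78% of all promoters. The promoter of TRIB3 does not hold these letters. CHAC1 holds them on the reverse strand (chr15:40953251-40953500, plus strand, GRCh38.p14, in the same window as above, with the match in capitals).
CHAC1: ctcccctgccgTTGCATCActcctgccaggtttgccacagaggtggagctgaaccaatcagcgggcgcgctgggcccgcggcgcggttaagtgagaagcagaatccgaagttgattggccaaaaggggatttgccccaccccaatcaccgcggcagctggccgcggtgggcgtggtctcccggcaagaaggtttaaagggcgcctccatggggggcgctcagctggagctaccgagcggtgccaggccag

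Of 20 genes of the unfolded protein response of the endoplasmic reticulum, none rose and 7 fell, at a median of −0.131. DNAJB11 had 114, 97.7 and 112 CPM with NU7441, against 150.2, 140.1 and 139.6 CPM in Ctrl (log2 fold change −0.41 ± 0.072, adjusted p = 0.004), and DNAJB9 had 29.5, 28.8 and 29.4 CPM with NU7441, against 41.7, 37.9 and 35.9 CPM in Ctrl (log2 fold change −0.40 ± 0.074, adjusted p = 0.00512). Both are co-chaperones of BiP. SDF2L1 and MANF, proteins of the same compartment, fell by 0.39 and 0.30 (adjusted p = 0.0211 and 0.0111), and XBP1, DNAJC3 and HERPUD1 by 0.24 to 0.30. Of 14 heat shock genes, none rose and 6 fell, at a median of −0.311. HSPH1, a large chaperone of the HSP110 family, had 485, 362 and 464 CPM with NU7441, against 647, 610.4 and 618 CPM in Ctrl (log2 fold change −0.52 ± 0.094, adjusted p = 0.00543), and HSPA8, the constitutive HSP70, had 4133, 3377 and 3777 CPM with NU7441, against 5215, 4793 and 4489 CPM in Ctrl (log2 fold change −0.36 ± 0.093, adjusted p = 0.0202). DNAJA1, a co-chaperone, and HSPE1, the mitochondrial HSP10, fell by 0.38 and 0.31 (adjusted p = 0.00917 and 0.0148). DNAJB1 and HSPD1, a further co-chaperone and the mitochondrial HSP60, fell by 0.27 and 0.31. The heat shock element, a run of inverted GAA repeats, was present on either strand in 3 of 13 matched promoters of that list (23.1%) and in 0.326% of all promoters. The promoter of HSPH1 does not hold it. Without 1 library, 2 to 7 unfolded protein response genes and 1 to 7 heat shock genes fell.

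Of 25 genes of MYC and ribosome biogenesis, 17 fell and none rose, at a median of −0.274. GAR1, of the box H/ACA particles that modify ribosomal RNA, had 8.04, 6.82 and 8.09 CPM with NU7441, against 9.99, 9.25 and 12.5 CPM in Ctrl (log2 fold change −0.47 ± 0.12, adjusted p = 0.0188). RRS1, an assembly factor, had 40.3, 32.7 and 40.4 CPM with NU7441, against 48.5, 49.5 and 54.5 CPM in Ctrl (log2 fold change −0.43 ± 0.084, adjusted p = 0.00649), and NOP2, a methyltransferase of ribosomal RNA, had 105, 83.8 and 99.9 CPM with NU7441, against 129, 128 and 127 CPM in Ctrl (log2 fold change −0.41 ± 0.078, adjusted p = 0.00565). RRS1 and NOP2 were called in each fit without 1 library. NOP16, a nucleolar protein, fell by 0.38 (adjusted p = 0.00649). The other 13 falls, of which NCL, NPM1, FBL, NOP56 and NOP58 encode the main proteins of the nucleolus, lay between −0.38 and −0.21. Without Ctrl 1, 2 or 3, 2, 5 and 11 of the 25 fell, and 1 in the fit over all 24 libraries. In that wider fit 2 ATF4 genes, 1 unfolded protein response gene and 1 heat shock gene fell, and 5 sterol genes and 4 androgen-induced genes rose. Genes for the ribosomal proteins themselves were not called (0 of 25, median 0.0415), and the largest difference was that of RPL3 (log2 fold change 0.17 ± 0.09, adjusted p = 0.228). HSPA8 was no longer called without NU7441 2 (adjusted p = 0.0567), and CEBPG, SDF2L1, MANF, HSPH1, DNAJA1, HSPA8, HSPE1, GAR1 and NOP16 without Ctrl 1 (adjusted p 0.0516 to 0.114). ATF5, SDF2L1, MANF, HSPA8 and HSPE1 were no longer called without Ctrl 2 (adjusted p 0.0662 to 0.099), and GAR1 without Ctrl 3 (adjusted p = 0.0886).

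Of 23 glycolysis and hypoxia genes, 3 rose and 4 fell (median −0.11), beside 6.25% and 7.58% of all genes tested. Without Ctrl 1, none rose and 2 fell. HK2, the hexokinase that is known to bind mitochondria, had 47.7, 41.6 and 47.6 CPM with NU7441, against 58.1, 62.8 and 66.6 CPM in Ctrl (log2 fold change −0.45 ± 0.075, adjusted p = 0.00367), and LDHA, lactate dehydrogenase A, had 680.0, 557 and 654 CPM with NU7441, against 820.1, 839 and 855 CPM in Ctrl (log2 fold change −0.41 ± 0.081, adjusted p = 0.00649). ALDOC and ENO2, the aldolase and enolase of neural tissue, rose by 0.90 and 0.68 (adjusted p = 0.0417 and 0.0151), PFKFB4 rose by 0.25, and PGAM1 and EGLN3 fell by 0.29 and 0.35. PFKFB4 was called in none of the fits without 1 library (adjusted p 0.0646 to 0.137), EGLN3 only without NU7441 3 (in the others adjusted p 0.0763 to 0.179), and PGAM1 not without Ctrl 1 or Ctrl 2 (adjusted p 0.113 to 0.114). Of 21 nuclear genes of oxidative phosphorylation, none rose and 5 fell (median −0.0814). CYCS, cytochrome c, had 410.0, 401 and 422 CPM with NU7441, against 634, 581 and 517 CPM in Ctrl (log2 fold change −0.49 ± 0.079, adjusted p = 0.00318). SDHB and SDHD of complex II and UQCRFS1 of complex III fell by 0.29, 0.26 and 0.28 (adjusted p = 0.0162, 0.0371 and 0.0163), and NDUFS3 of complex I by 0.26 (adjusted p = 0.0255). Only 1 of the 21 fell without Ctrl 1 or Ctrl 2, and NDUFS3 was no longer called without NU7441 3, Ctrl 1 or Ctrl 2 (adjusted p 0.0827 to 0.178). HK2, LDHA and CYCS were called in each fit without 1 library. None of the 13 mitochondrially encoded genes was called (median −0.0992; without Ctrl 3, 2 were higher), with MT-ND6 the largest difference (log2 fold change −0.33 ± 0.27, adjusted p = 0.479). Mitochondrial RNA took 1.09% to 1.41% of counts with NU7441, against 0.92% to 2.34% in Ctrl. ALDOC and SDHD were no longer called without NU7441 1 (adjusted p 0.055 to 0.0807), and SDHD without NU7441 3 (adjusted p = 0.073). ALDOC, ENO2, SDHB, UQCRFS1 and SDHD were no longer called without Ctrl 1 (adjusted p 0.0765 to 0.241), and ALDOC, SDHB, UQCRFS1 and SDHD without Ctrl 2 (adjusted p 0.101 to 0.137). ALDOC was no longer called without Ctrl 3 (adjusted p = 0.134).

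Of 23 targets of actin-regulated SRF and YAP, none rose and 8 fell, at a median of −0.173. SRF itself, the actin gene ACTB, TPM1 and TAGLN2 fell by 0.25 to 0.38. SRF was called without NU7441 1 but in no other fit without 1 library (adjusted p 0.0507 to 0.172). ACTB was no longer called without NU7441 2 or any 1 of the Ctrl libraries (adjusted p 0.0524 to 0.118), and TAGLN2 without Ctrl 1 or Ctrl 2 (adjusted p 0.0584 to 0.0706). Beside ACTA2, CNN2, a calponin that binds actin, had 23.3, 18.1 and 23.2 CPM with NU7441, against 30.4, 33.5 and 32.5 CPM in Ctrl (log2 fold change −0.58 ± 0.092, adjusted p = 0.00318), and AJUBA, an adaptor of cell junctions, had 14.2, 12.5 and 13.5 CPM with NU7441, against 17.6, 18.4 and 17.8 CPM in Ctrl (log2 fold change −0.42 ± 0.084, adjusted p = 0.00665). FHL2, a LIM domain cofactor, fell by 0.74 (adjusted p = 0.0157). Without 1 library, 4 to 10 of the 23 fell. The circadian list had no rise and 4 falls among 17 genes (median −0.092). PER2, a repressor of the clock, had 16.4, 11.5 and 16.1 CPM with NU7441, against 24.03, 23.5 and 24.5 CPM in Ctrl (log2 fold change −0.71 ± 0.11, adjusted p = 0.00373), and HLF, a clock output factor, had 18.96, 17.5 and 20.3 CPM with NU7441, against 29.6, 26.7 and 26.4 CPM in Ctrl (log2 fold change −0.54 ± 0.082, adjusted p = 0.00296). PER3 and CRY1, further repressors, fell by 0.32 and 0.31 (adjusted p = 0.0153 and 0.0187). CNN2, AJUBA, PER2 and HLF were called in each fit without 1 library. FHL2, PER3 and CRY1 were no longer called without Ctrl 1 (adjusted p 0.0678 to 0.121) or Ctrl 2 (adjusted p 0.0684 to 0.0912).

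Of 29 interferon response genes, 3 rose and 2 fell (median 0.153), beside 6.25% and 7.58% of all genes tested. None rose without Ctrl 1 or Ctrl 2, and 2 fell in each. While GBP2 fell, STAT2, a signal transducer of type I interferon, rose by 0.31 and the class I molecules HLA-E and HLA-C by 0.30 and 0.22 (adjusted p = 0.0189, 0.0419 and 0.0432). HLA-C was called without NU7441 3 but in no other fit without 1 library (adjusted p 0.0895 to 0.114). Among drug transporters 2 of 8 rose and 1 fell (median 0.183), beside the same shares of all genes tested. SLC22A3, an organic cation transporter, had 93, 104 and 98.8 CPM with NU7441, against 59.5, 63.9 and 64.2 CPM in Ctrl (log2 fold change 0.66 ± 0.068, adjusted p = 0.000182), the smallest adjusted p among the transporters, and was called in each fit without 1 library. ABCG2, an efflux pump of many drugs, had 1.58, 0.998 and 1.38 CPM with NU7441, against 3.06, 2.05 and 2.01 CPM in Ctrl (log2 fold change −0.85 ± 0.21, adjusted p = 0.018), and ABCA3, a lipid transporter, rose by 0.21 (adjusted p = 0.0491). Of 14 genes of epithelial-mesenchymal transition 2 rose and none fell (median −0.00304): FN1, fibronectin, had 1034, 1098 and 1127 CPM with NU7441, against 742, 814 and 887 CPM in Ctrl (log2 fold change 0.42 ± 0.08, adjusted p = 0.00617), and CLDN3, a claudin of tight junctions, rose by 0.32 (adjusted p = 0.0258).

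The remaining lists held few calls, beside 6.25% of all genes tested that rose and 7.58% that fell. Of 19 Wnt signalling genes, LRP5, a coreceptor, rose by 0.32, and the receptor FZD5 and the ligand WNT5A fell by 0.38 and 0.37 (adjusted p = 0.0132, 0.0176 and 0.0412, list median −0.0143). Of 16 NRF2 targets, 1 rose and 1 fell (median 0.0213), and the fall was that of SLC7A11, the cystine transporter, by 0.20 (adjusted p = 0.0444). Of 18 immediate early and MAPK feedback genes, SPRED1, an inhibitor of RAS signalling, fell by 0.30 (adjusted p = 0.0352, median −0.0971), and of 7 aryl hydrocarbon receptor genes, the repressor AHRR rose by 0.79 at a level near the limit of detection (adjusted p = 0.0465, median 0.0594). HLA-E, ABCA3, WNT5A, SLC7A11, SPRED1 and AHRR were no longer called without NU7441 1 (adjusted p 0.0796 to 0.148), and HLA-E, CLDN3, WNT5A, SPRED1 and AHRR without NU7441 2 (adjusted p 0.0599 to 0.118). ABCA3 and SLC7A11 were no longer called without NU7441 3 (adjusted p 0.0813 to 0.0916), and STAT2, HLA-E, ABCG2, ABCA3, CLDN3, LRP5, FZD5, WNT5A, SLC7A11, SPRED1 and AHRR without Ctrl 1 (adjusted p 0.0549 to 0.148). STAT2, HLA-E, ABCA3, CLDN3, FZD5, WNT5A, SLC7A11, SPRED1 and AHRR were no longer called without Ctrl 2 (adjusted p 0.0547 to 0.254), and HLA-E, ABCA3, FZD5, WNT5A, SLC7A11, SPRED1 and AHRR without Ctrl 3 (adjusted p 0.0559 to 0.116).

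The same compound was also given on top of the antiandrogen Enza, in libraries that share none with the 6 above. With all 3 NU7441+Enza and 3 Enza libraries, edgeR called 0 of 20059 genes (1753 at an unadjusted p under 0.05), and DESeq2 called 112. The library Enza 1 stood apart from its replicates, with an SD of log2 differences from the other two of 0.489, against 0.264 and 0.29 for Enza 2 and 3. Without Enza 1, 1714 of 20599 genes (8.32%) were called, of which 1000 (4.85%) were higher and 714 (3.47%) lower with NU7441+Enza, and leaving out any other library gave 0 calls. Results that follow leave out Enza 1 and so rest on 3 against 2 libraries, a choice made with these counts known. What set Enza 1 apart was not tested.

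Genes that changed with NU7441 alone mostly took the same direction in the presence of Enza. Of the 2687 called genes tested in both, 2540 (94.5%) had the same sign and 791 were called in it, and none was called in the opposite direction. Over all 19271 genes tested in both, 69.1% had the same sign. With all 6 libraries, 74.7% of 2684 called genes and 59.9% of all 19133 genes had the same sign. The 1220 rises had a median of 0.237 with Enza and the 1467 falls a median of −0.12. Of the 352 genes called in each fit without 1 library, 346 (98.3%) had the same sign and 228 were called. Over 12937 genes of an average log2 CPM of at least 1, Pearson's r between the fold changes was 0.703, across genes, which are not independent replicates.

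HTRA1 had 9.22, 8.2 and 8.83 CPM with NU7441+Enza, against 4.59, 5.02 and 4.75 CPM with Enza alone (0.84 ± 0.11, adjusted p = 6.64e-07), and CAMK2B had 3.1, 2.79 and 3.16 CPM with NU7441+Enza, against 2.13, 1.16 and 1.58 CPM with Enza alone (1.15 ± 0.19, adjusted p = 3.23e-05). ACTA2 had 2.08, 2.14 and 2.15 CPM with NU7441+Enza, against 3.9, 4.24 and 4.11 CPM with Enza alone (−0.98 ± 0.15, adjusted p = 1.02e-05). UGT2B11 had 2.06, 1.43 and 2.06 CPM with NU7441+Enza, against 3.48, 3.97 and 3.3 CPM with Enza alone (−0.98 ± 0.17, adjusted p = 7.64e-05), and CHAC1 had 7.8, 7.6 and 5.5 CPM with NU7441+Enza, against 14.1, 11.3 and 12.1 CPM with Enza alone (−0.74 ± 0.11, adjusted p = 2.23e-05). All 5 kept the direction seen without Enza. INSIG1 was higher (0.61 ± 0.063, adjusted p = 2.87e-09), as were SLC22A3 (0.42 ± 0.057, adjusted p = 2.19e-06) and TMPRSS2 (0.38 ± 0.058, adjusted p = 1.35e-05). KLK3 was not called with Enza, with 565, 611 and 579 CPM with NU7441+Enza, against 670.3, 626 and 565 CPM with Enza alone (−0.024 ± 0.064, adjusted p = 0.882), nor was FN1 (−0.14 ± 0.069, adjusted p = 0.211).

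By list, 58 of 108 mitotic genes were lower (median −0.193), 15 of 29 sterol genes higher (median 0.182), and 14 of 32 ATF4 genes lower (median −0.147), against 4.85% and 3.47% of all genes. The difference of the NU7441 effect with and without Enza was tested in 1 model of 12 libraries, in which edgeR called 0 of 20964 genes (1241 at an unadjusted p under 0.05) and DESeq2 also 0. Without Enza 1 the model called 0 of 21513 genes (1446 at an unadjusted p under 0.05). In this fit the difference for FN1 was −0.58 ± 0.11 (adjusted p = 0.271), and for ACTA2 it was 0.96 ± 0.21 (adjusted p = 0.393).

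**Figure D5:**
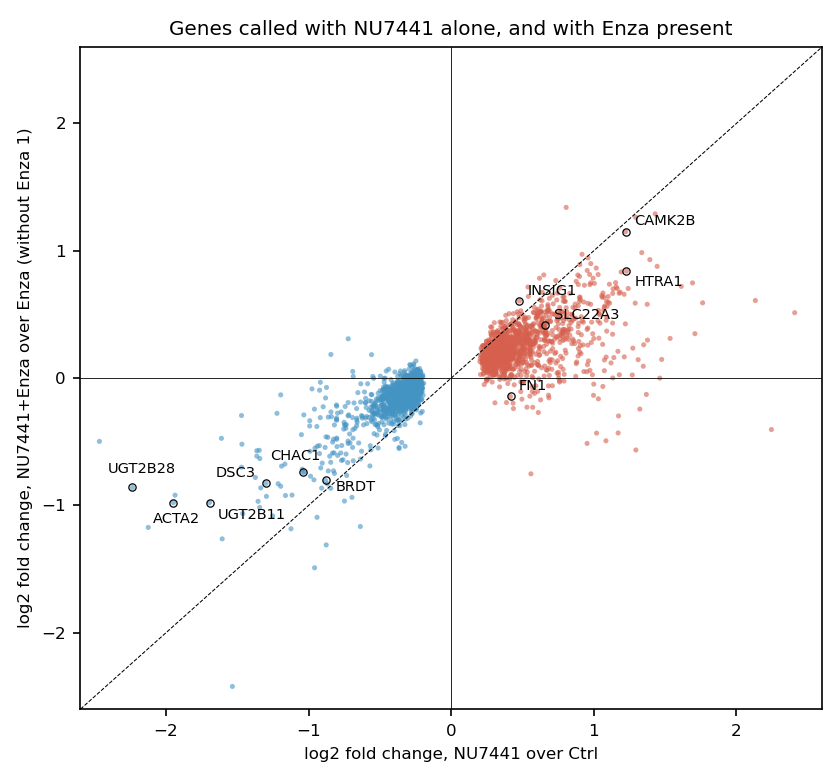
Log2 fold change of NU7441+Enza over Enza, without Enza 1 (vertical axis), against that of NU7441 over Ctrl (horizontal axis), for 2687 genes called with NU7441 alone, coloured by direction. The dashed line marks equal changes: 94.5% of points share the sign (69.1% of all genes tested in both), and most lie nearer to 0 on the vertical axis.

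NU7441 was set directly against the other inhibitors at the same dose and time. These comparisons use the same NU7441 libraries as above, so they are given as differences between compounds and not as further evidence of the NU7441 effect. Against CC-223, the TOR kinase inhibitor, 4228 of 19825 genes (21.3%) were called, of which 2338 (11.8%) were higher and 1890 (9.53%) lower with NU7441. The count was 6519 without NU7441 2, 2397 without NU7441 1, 2739 without CC-223 1 and 2378 without CC-223 2. A fit over all 24 libraries called 1672, with 43.7% of them higher against 55.3% here.

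ATF4 genes were higher with NU7441 than with CC-223, with 26 of 32 called higher and none lower (median 0.539). CHAC1 differed by 1.85 ± 0.15, adjusted p = 2.14e-07. Of 28 sterol genes, 20 were higher and 1 lower (median 0.552), INSIG1 by 1.34 ± 0.077, adjusted p = 8.56e-09, and SCD of fatty acid synthesis by 1.03 ± 0.073, adjusted p = 4.74e-08. Androgen-induced genes lay on the other side, with 1 higher and 30 lower of 36 (median −0.578), KLK3 by −0.48 ± 0.07, adjusted p = 0.000108, and TMPRSS2 by −0.93 ± 0.13, adjusted p = 0.00264. Of the 108 mitotic genes, 14 were higher and 1 lower (median 0.486), but 106 were higher without NU7441 2 and between 9 and 10 when any other library was left out. PRKDC differed by 0.085 ± 0.08, adjusted p = 0.483.

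Against CC-115, 12850 of 20208 genes (63.6%) were called, of which 6482 (32.1%) were higher and 6368 (31.5%) lower with NU7441. BRDT differed by 4.97 ± 0.29, adjusted p = 2.02e-11, PGLYRP2 by 4.43 ± 0.37, adjusted p = 3.57e-09 and SLC22A3 by 3.24 ± 0.073, adjusted p = 5.32e-17. KLK3 was lower with NU7441 (−0.91 ± 0.068, adjusted p = 5.92e-10), as was MTOR (−0.85 ± 0.062, adjusted p = 5.34e-10), while PRKDC was higher (0.43 ± 0.076, adjusted p = 6.84e-05). Replication genes were higher with NU7441 in 33 of 34 cases and lower in 1 (median 1.95), and 49 of 108 mitotic genes were higher and 1 lower (median 0.608). Without NU7441 2, 97 of the 108 were higher, against 35 to 42 when any other library was left out. Androgen-induced genes were higher in 7 and lower in 23 of 36 (median −0.4). The count of called genes lay between 11870 and 13695 when 1 library was left out.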

How the data were processed

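The libraries were made per the labels with a TruSeq kit for stranded total RNA that removes ribosomal RNA. The deposited values are raw counts per gene. Per the submitters' processing notes the authors aligned reads to hg19 with STAR 2.5.2a, counted them with featureCounts 1.5.0-p3 and used DESeq2 1.14.1. Which annotation release and strand setting were used, and how multi-mapping reads were counted, is not given in the sources used here. All 63677 features of the C4-2 table are Ensembl IDs, and 52526 were matched to a symbol.

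Groups were taken from the sample titles. Each comparison was fitted on its own libraries only: after filterByExpr and TMM scaling, edgeR 4.0.16 in R 4.3.3 (with limma 3.58.1) gave robust quasi-likelihood tests. The standard error of a fold change was taken as its size over the root of the F statistic. Alternatives were median-of-ratios size factors, DESeq2 1.42.0, no filter, a filter of 1 CPM in 3 libraries, a replicate block, fits over all 24 C4-2 libraries and over those but Enza 1 and CC-115+Enza 1, small and mitochondrial RNA removed, and each library left out. On simulated data the method recovered 79.1%, 95.5% and 100% of genes changed 1.5, 2 and 4-fold in NU7441 against Ctrl and called 12 of 18970 unchanged genes. The changed genes had a mean of at least 1 CPM. Counts were drawn independently for each gene and library, without a shift shared by many genes of a library. The rates therefore do not carry over to libraries that stand apart, such as NU7441 2. Replicates differed beyond counting error, so the spread between libraries and not depth limits abundant genes.

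Named genes were PRKDC, XRCC5, XRCC6, MTOR and KLK3, the 15 largest rises and falls (called, protein-coding, with an approved symbol, an average log2 CPM of at least 1 and no overlap of the groups), and up to 4 called members of each of 43 lists (37 pathways and 6 sets of cell type markers, with 847 genes, of which 768 were tested), or the largest difference where none was called. The text names a subset, and some genes that the rule selects are not reported here. Further list members named with a range only, and HSD3B1, KRT18, MYLIP, BTG2, TIGAR, CDK4, CDKN1B, NDUFS3, PFKFB4, PGAM1, EGLN3 and HLA-C, were named after their values were seen. The members and lists were chosen with earlier results of these data known. Tables were read with Python 3.11.15, pandas 2.3.3 and numpy 2.4.6 and drawn with matplotlib 3.10.9. Promoter sequences are from RefSeq (GRCh38.p14) and gene positions are those of hg19.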

Additional observations from a re-analysis of the deposited data

How the results depend on the processing

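The number of genes called for NU7441 against Ctrl was 2706, and lay between 422 and 2481 when 1 library was left out. It was 776 over all 24 libraries and 5011 over those but Enza 1 and CC-115+Enza 1, and stayed within a factor of 1.5 with size factors (2580), DESeq2 (2570), no filter (3306), small and mitochondrial RNA removed (2544) and the stricter filter (2601). For NU7441+Enza against Enza the count was 0, with 112 by DESeq2, 10 with no filter, 87 and 598 in the wider fits, and 0 to 1714 with 1 library left out. The difference between these effects gave 0, with 67 with no filter and 3 in the fit without Enza 1 and CC-115+Enza 1. Against CC-223 the count was 4228, with 1672 over all 24 libraries and 2378 to 6519 with 1 library left out. Of the values of 141 named genes under the alternatives, 1575 kept direction and call, 370 lost the call, 11 gained it and 11 changed sign, all of genes not called. MTOR was at 0.0165 with no filter, 0.0214 with the stricter filter, 0.00412 and 0.00424 in the wider fits and 0.0136 with small RNA removed. Without 1 library MTOR lay between −0.0361 and 0.0294, CHGA between −0.379 and 0.132 and CD68 between −0.519 and 0.363. The cause of these changes was not tested. The NU7441 and Ctrl libraries share replicate numbers, and the labels do not state a pairing. The correlation of the deviations of same-numbered libraries was 0.129, 0.00679 and 0.164, against −0.155 to 0.026 for libraries of different numbers. These values cannot decide whether the numbers mark pairs, and the main fit did not take them as pairs. With a replicate block 3366 genes were called against Ctrl, 0 with Enza, 0 for the difference, 3944 against CC-223 and 12671 against CC-115. A count of 0 and values under 1 CPM are limited by depth, and with 3 libraries a group a call depends on the spread of single libraries.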

Other observations

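Genes that lie next to each other on chromosome 14 rose together. They were picked after their values were seen, starting from ARG2, and the stretch was then read as a whole: of the 14 genes tested from PALS1 to ZFYVE26, 7 rose and none fell, beside 6.25% and 7.58% of all genes tested. TMEM229B, a membrane protein (log2 fold change 0.86 ± 0.17, adjusted p = 0.007), PLEKHH1, a pleckstrin homology protein with 67.5, 87.8 and 69.7 CPM with NU7441, against 38.2, 40.2 and 46.2 CPM in Ctrl (log2 fold change 0.85 ± 0.10, adjusted p = 0.00292), and PIGH, of glycolipid anchor synthesis with 28.2, 34.9 and 25.4 CPM with NU7441, against 21.1, 19.7 and 20.5 CPM in Ctrl (log2 fold change 0.53 ± 0.10, adjusted p = 0.00648), were called in each fit without 1 library. ARG2 and RDH11, a retinol dehydrogenase with 334, 489.8 and 317 CPM with NU7441, against 223, 205 and 206 CPM in Ctrl (log2 fold change 0.85 ± 0.17, adjusted p = 0.0294), were called with NU7441 replicate 2 highest, but not in each of those fits. RDH12, a related enzyme, rose at a level near the limit of detection, with 0.56, 1.3 and 0.821 CPM with NU7441, against 0.426, 0.429 and 0.353 CPM in Ctrl (adjusted p = 0.0301), and the seventh was a gene without a symbol whose span overlaps those of VTI1B and RDH11. On either side the calls ended, with PLEK2 (0.15 ± 0.11, adjusted p = 0.367) and EIF2S1 (0.017 ± 0.073, adjusted p = 0.905) before TMEM229B and ZFYVE26 (0.075 ± 0.071, adjusted p = 0.523) after RDH12. ATP6V1D, which lies before EIF2S1, was not called either (0.24 ± 0.081, adjusted p = 0.0535), but it was called in 2 fits without 1 library. VTI1B lies inside the stretch and was not called (0.17 ± 0.07, adjusted p = 0.107). COX7A2P1, a pseudogene inside it at a low level, was also not called (0.84 ± 0.32, adjusted p = 0.0838). In the presence of Enza, without Enza 1, PLEKHH1, PIGH, ARG2 and RDH11 were higher with NU7441+Enza (log2 fold changes 0.31, 0.27, 0.43 and 0.45, adjusted p = 0.00069, 0.0126, 9.01e-05 and 1.39e-06). TMEM229B, RDH12 and the gene without a symbol were not called there (adjusted p = 0.275, 0.778 and 0.424). The spans of TMEM229B, PLEKHH1 and PIGH overlap at their ends, and so do those of ARG2 and VTI1B, so a few reads cannot be assigned. On chromosome 4, TMPRSS11E, a serine protease beside the UGT2B genes, fell with them, with 0.611, 0.444 and 0.821 CPM with NU7441, against 1.67, 1.65 and 1.5 CPM in Ctrl (log2 fold change −1.36 ± 0.23, adjusted p = 0.00373), and was not called with Enza present (adjusted p = 0.282).

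In the main fit, abundant genes and rare genes leaned in opposite directions. The balance of all calls moved with the setting. Without Ctrl 1, 300 rose and 122 fell, and with the stricter filter 1495 rose and 1106 fell. With small and mitochondrial RNA removed, 1427 rose and 1117 fell. Falls were more numerous with DESeq2 (1180 rises and 1390 falls) and without Ctrl 3 (863 and 1135). Shares by level and by span were not counted in these settings. Of the 4892 tested genes with an average log2 CPM above 5.5, 5.48% rose and 16.8% fell, and of the 4892 with one between 0.06 and 3.2, 8.2% rose and 3.21% fell. Among protein-coding genes, the 3329 with a genomic span over 80.1 kb had 9.19% rises and 6.64% falls, whereas 3 groups of shorter genes of about the same number had 6.97% to 7.72% rises and 11.1% to 12.2% falls. Of 3235 long non-coding genes tested, 109 rose (3.37%) and 56 fell (1.73%), beside 6.25% and 7.58% of all genes tested. ZMIZ1-AS1 had 3.05, 4.21 and 3.05 CPM with NU7441, against 1.73, 1.9 and 1.85 CPM in Ctrl (log2 fold change 0.91 ± 0.17, adjusted p = 0.00483), and CCDC18-AS1 had 10.5, 15.2 and 10.1 CPM with NU7441, against 6.7, 6.12 and 6.99 CPM in Ctrl (log2 fold change 0.85 ± 0.15, adjusted p = 0.00551). DSG1-AS1 had 1.58, 0.915 and 2.17 CPM with NU7441, against 4.06, 3.28 and 3.26 CPM in Ctrl (log2 fold change −1.19 ± 0.23, adjusted p = 0.00889), and HECW2-AS1 had 3.46, 2.72 and 4.48 CPM with NU7441, against 7.94, 7.41 and 6.39 CPM in Ctrl (log2 fold change −1.03 ± 0.15, adjusted p = 0.00312). These were among the largest changes of long non-coding genes and were chosen after their values were seen. ZMIZ1-AS1 and HECW2-AS1 were called in each fit without 1 library. CCDC18-AS1 and DSG1-AS1 were no longer called without Ctrl 1 (adjusted p = 0.0536 and 0.0641). The reads of all these antisense genes cannot be told from those of their partners without the strand setting. Features with symbols that start with RN7SK took 0.00312%, 0.00333% and 0.00313% of counts with NU7441, against 0.00239%, 0.00243% and 0.00257% in Ctrl. This class held 17 tested features and is not the 7SK gene alone. Its exact permutation p was 0.1, two-sided, the smallest that 3 against 3 allows. The classes of 7SL, of RMRP with RPPH1 and of long non-coding RNA had the same p.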
